A study of Mus musculus and Rattus norvegicus with 80 samples.

Results

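UID-13571, UID-16508 and UID-914 are 3 of the 17019 different full-length L1 loci for which the study counted reads in mouse organs. They were chosen by the measured values themselves, namely their high read counts in testes over a small covered part of the counting window, so their height in testes and their short coverage are given as a description and not tested. All 68 mouse libraries (21 mice) of the 80 in the series were used, each made from the cytoplasmic polyadenylated RNA of 1 organ. Every mouse was of the C57BL/6 strain, with no genetic change or treatment named in the sample labels. The 12 males gave testes and livers at 1.9-3.6 mo, at 7.6 mo, at 12.8 mo and at 22.3 mo (3 mice each), brains at 7.6 and 12.8 mo (3 mice each) and lungs at 7.6 mo (2 mice) and 12.8 mo (3 mice). The 9 females gave ovaries, brains and lungs at 2.2-3.2 mo (3 mice), 8-8.7 mo (4 mice) and 16.5 mo (2 mice), and 6 of them gave a uterus (1, 3 and 2 mice, in the same order).

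L1 is a retrotransposon that copies itself through an RNA intermediate, and most of its copies in a genome can no longer move. Because many copies lie within or beside genes, reads can fall on an L1 annotation when a neighbouring gene is transcribed in the same direction. A processed pseudogene is the intronless copy that L1 proteins leave in the genome when they reverse-transcribe the spliced mRNA of another gene. The testis, with its many stages of developing germ cells, transcribes an unusually broad set of genes. In whole organs, fewer cells of a type and less RNA per cell cannot be told apart.

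Every male library showed a read length of 100 bases and every female library one of 150 bases, taken from the longest stretch that 2 reads covered (35 and 33 libraries), so sex and read length cannot be told apart. No test was made between the sexes, and male and female values set side by side come from libraries of different read length. The libraries held 9567 to 109959 reads on L1 loci, out of 8.45 M to 51.4 M mapped reads. P-values measure the spread between mice. Outside 12.8 mo, the reads of a locus were counted from 700 bases upstream to 1000 bases downstream of the L1. At 12.8 mo, UID-13571 and UID-914 were counted from 300 bases upstream to 500 bases downstream, and UID-16508 from 4248 bases upstream to 1157 bases downstream. Age and counting window therefore cannot be told apart in any comparison with 12.8 mo.

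All 3 windows reached an annotated exon on the strand of the L1, and in each case the exon lay in a flank and not in the L1 itself. Of all 17019 windows, 230 (1.35%) held a same-strand exon in a flank and 99 (0.582%) an exon of a processed pseudogene there (GENCODE release M21, GRCm38, the same build as mm10). UID-13571 is a non-intact L1 on the minus strand (mm10, chr4:91800660-91805389) with no gene over it. In its upstream flank, with its 3' end 157 bases from the L1, lies Gm12669, a processed pseudogene of Glrx3, which encodes glutaredoxin 3, a protein of iron-sulfur cluster handling. The window held 543 bases of the 1009-base pseudogene exon (chr4:91805547-91806555), and the 12.8 mo window held 143 of them. UID-914 is a non-intact L1 on the plus strand (chr17:78485501-78490827), also outside genes. Its downstream flank ran into Gm10093, a processed pseudogene of Hdac1, which encodes a histone deacetylase, over 246 bases of exon (chr17:78491582-78493025). RefSeq (GRCm38.p6) names the same pseudogene Hdac1-ps and starts it earlier, which put 263 bases in the window. The 12.8 mo window of UID-914 ended short of the pseudogene under both annotations.

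UID-16508 is on the list of intact L1 loci and lies on the minus strand (chr8:24798757-24803733) in an intron of Adam5, a protein-coding gene of the same strand (chr8:24727093-24824369) from a family of membrane proteins that includes several made by male germ cells. The upstream flank took in 76 coding bases of exon 12 of 21 of Adam5-201. The longer window of 12.8 mo took in the whole of that exon (187 bases) and exon 11 (134 bases). The map of the counting windows shows these positions in the orientation of each L1.

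**Figure D1:**
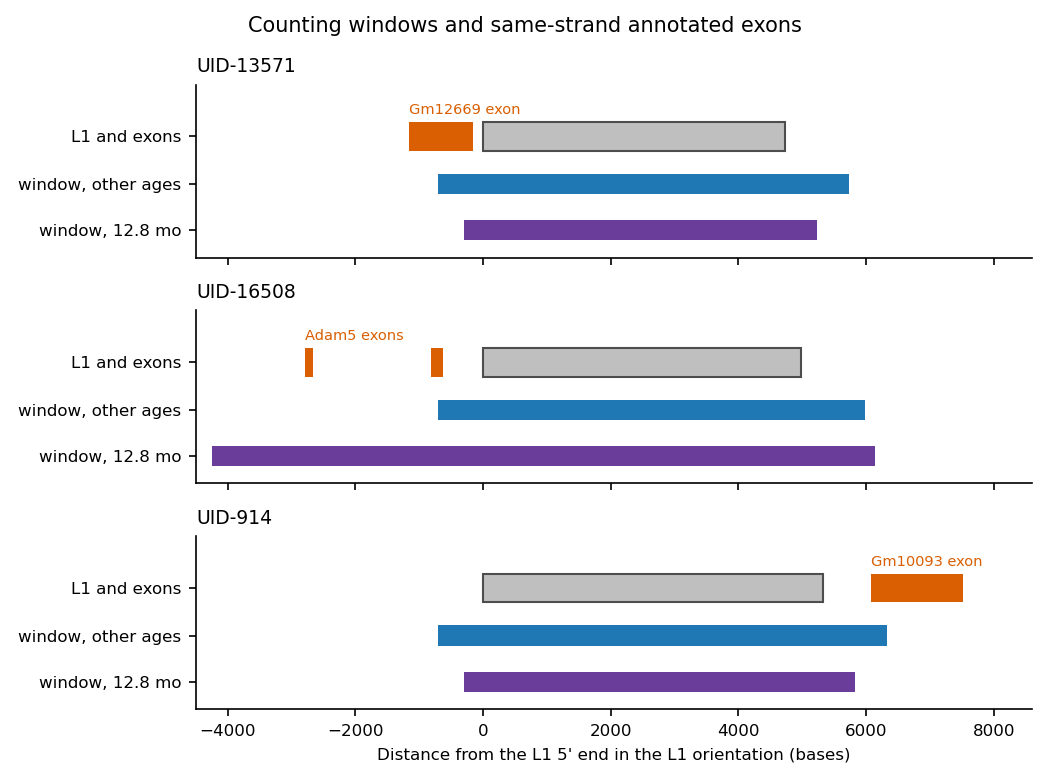
Each panel shows 1 locus, with the distance from the 5' end of the L1 in bases on the horizontal axis, the L1 in grey, annotated same-strand exons in orange, the counting window outside 12.8 mo in blue and that of 12.8 mo in purple. The blue window reaches an exon in all 3 panels, whereas the purple window holds less of Gm12669, more of Adam5 and none of Gm10093.

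The stretches of exon inside the windows are shown because the covered bases of the 3 loci were set beside them, and because they can be held against the spliced mRNA of the parent gene. Within the 543 bases of Gm12669, 2 bases differed from Glrx3-201 (99.6% identity), namely A6G and C276G, where the base of Glrx3-201 comes first and positions count from 1 at the 5' end of the stretch. The first 300 bases are printed 5' to 3' on the minus strand (chr4:91805790-91806089) with these differences in capitals, followed by the last 143 bases (chr4:91805547-91805689), the part that the 12.8 mo window also held and in which no base differed.
Gm12669, first 300 bases: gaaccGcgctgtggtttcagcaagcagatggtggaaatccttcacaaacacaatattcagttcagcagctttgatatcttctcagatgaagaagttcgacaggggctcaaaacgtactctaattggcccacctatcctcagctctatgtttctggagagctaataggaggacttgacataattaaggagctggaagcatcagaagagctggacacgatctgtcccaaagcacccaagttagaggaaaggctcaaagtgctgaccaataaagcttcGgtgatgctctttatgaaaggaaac
Gm12669, last 143 bases: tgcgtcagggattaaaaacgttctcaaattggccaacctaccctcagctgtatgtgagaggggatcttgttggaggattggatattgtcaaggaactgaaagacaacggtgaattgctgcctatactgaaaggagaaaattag

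The 246 bases of Gm10093 in the window of UID-914 (chr17:78491582-78491827, plus strand) were identical to the first 246 coding bases of Hdac1-201, so no base is in capitals. The 76 bases of Adam5 in the window of UID-16508 (chr8:24804358-24804433, minus strand) belong to the gene itself.
Gm10093: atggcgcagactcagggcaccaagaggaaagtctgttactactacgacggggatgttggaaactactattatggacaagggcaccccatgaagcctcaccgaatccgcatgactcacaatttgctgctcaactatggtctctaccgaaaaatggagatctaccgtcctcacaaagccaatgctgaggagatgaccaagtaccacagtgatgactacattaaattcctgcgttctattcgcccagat
Adam5 exon 12: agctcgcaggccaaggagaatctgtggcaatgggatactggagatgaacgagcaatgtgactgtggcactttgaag

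The Glrx3 stretch spans 7 of the 10 exon junctions of Glrx3-201 and the Hdac1 stretch 2 of the 13 of Hdac1-201. In the pseudogenes these junctions are continuous sequence. The reads had been aligned without splicing to the genome, and only pairs with a single place within the mismatches allowed were kept. Whether a read counted in these stretches came from the pseudogene or from the spliced mRNA of the parent gene cannot be told apart from the counts. RefSeq lists Gm12669 as a transcribed pseudogene with a transcript of its own, and Hdac1-ps as a pseudogene without a transcript. None of the 3 loci had a value in any mouse library on the curated list of L1 loci.

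In 7.6 mo testes, 5 loci had at least 1000 reads in every library, and all 5 were covered over less than 15% of the window, limits set after the values had been seen. UID-13571, UID-16508 and UID-914 were 3 of them. At UID-13571, the 7.6 mo testes had 17273, 17028 and 12637 reads on 954, 742 and 752 covered bases. UID-16508 had 1421, 1162 and 1240 reads on 595, 79 and 678 covered bases, in the same order of mice. UID-914 had 1375, 1230 and 1157 reads on 292, 291 and 291 covered bases. The covered share of the window was therefore 11.5% to 14.8% for UID-13571, 1.18% to 10.2% for UID-16508 and 4.14% to 4.16% for UID-914. Reads per covered base ranged from 16.8 to 22.9 at UID-13571, from 1.83 to 14.7 at UID-16508 and from 3.98 to 4.71 at UID-914. UID-5948, a testis locus with no annotated exon in its window, was covered over 85.6% to 87.0% of the window in the same libraries at 0.0653 to 0.131 reads per covered base.

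The covered length of UID-13571 hardly moved with the number of reads. Over the 56 libraries outside 12.8 mo it ranged from 722 to 954 bases with a median of 754, while reads ranged from 823 to 21517. At 12.8 mo it ranged from 352 to 552 bases with a median of 353.5 over 12 libraries. The 12.8 mo window is 400 bases shorter on the side of the pseudogene, and the medians differed by about that length. The covered bases exceeded the annotated exon bases in both windows. In every library they also exceeded the whole upstream flank, of 700 bases outside 12.8 mo and 300 at 12.8 mo. Some covered bases therefore lay in the L1 or in the downstream flank. The covered length of UID-914 was 262 to 292 bases in all 56 libraries outside 12.8 mo (median 284), on 57 to 2092 reads. It never fell below the 246 exon bases of GENCODE, whereas its lowest value was under the 263 of RefSeq.

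UID-16508 could be split further, because an L1 on the list with an intact second reading frame, UID-14441, has a window nested in that of UID-16508 which ends 624 bases short of it, still holds the whole L1 of UID-16508 and holds no exon. In the 9 testes outside 12.8 mo, the window of UID-16508 held 630 to 1421 reads (median 958) and the nested window 0 to 20 reads (median 9). At most 2.09% of the reads of UID-16508 in a testis were thus counted in the nested window. The 624 bases outside the nested window, in which the 76 exon bases lie, had 79 to 407 covered bases, with a median of 95. In the testis of mouse 1303 all 1162 reads fell there, on 79 bases, and the nested window had none.

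**Figure D2:**
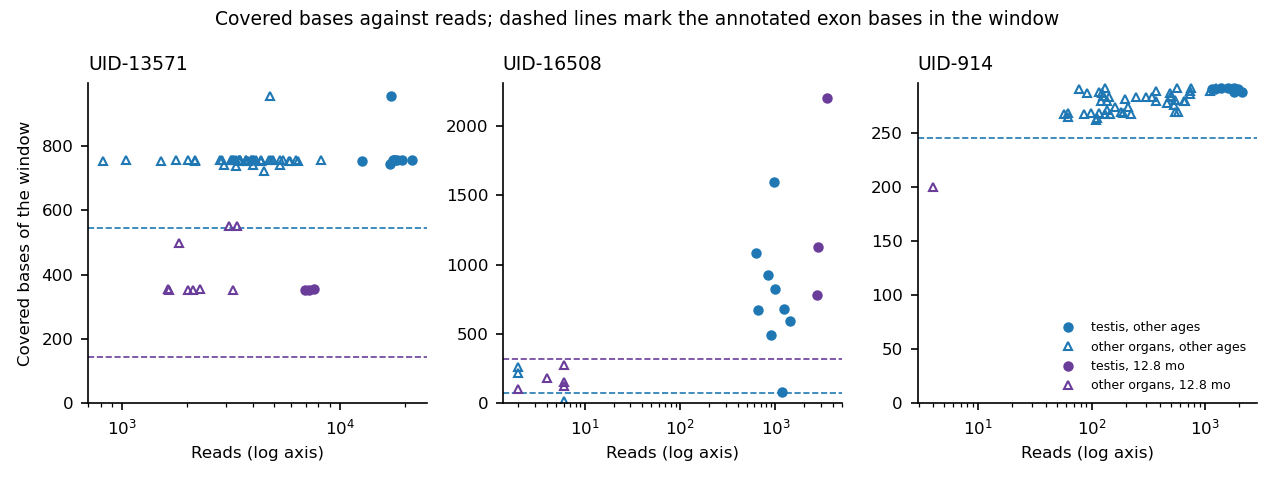
Covered bases of the counting window against reads (log axis) in every mouse library with a read, 1 panel per locus, with filled circles for testes and open triangles for other organs, blue outside 12.8 mo and purple at 12.8 mo, and dashed lines at the annotated exon bases in the window of the same color. UID-13571 and UID-914 keep nearly the same covered length over the whole range of reads, and UID-16508 spreads from 79 to 2201 bases in testes.

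The 3 loci differed in how far their reads were limited to testes. UID-13571 had reads in all 68 libraries. Outside 12.8 mo, testes had 12637 to 21517 reads (median 17854, n = 9), and the highest library of another male organ was a lung with 6419. In FPKM, read counts scaled to a length of 6 kb and to mapped reads in M, testes ranged from 67.6 to 95.3 (mean 80.3 ± 9.17, SD, n = 9) and the 2 male lungs of 7.6 mo had 56.8 and 51.6. Livers of the same ages had 6.00 to 30.3 (median 21.8, n = 9). The 3 male brains of 7.6 mo had 22.4, 20.9 and 21.4. In females, uteri had 24.2 to 51.2 (median 29.3, n = 6), ovaries 14.2 to 28.7 (median 18.5, n = 9), lungs 11.5 to 22.5 (median 17.5, n = 9) and brains 11.2 to 27.1 (median 16.5, n = 9). The mapped reads behind the highest brain (mouse 1325) rest on 8 of 15 listed loci, and those behind the highest uterus (mouse 1534, 7 of 7 loci) came out equal to those of the uterus of mouse 1324.

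This one locus took up a large part of all reads counted on L1 loci. UID-13571 held 18.3% to 25.8% of the L1 reads of testes outside 12.8 mo (mean 23.2% ± 2.35, SD, n = 9) and 14.8% to 27.1% of those of female brains (mean 21.1% ± 4.62, SD, n = 9). Its share was 9.13% to 11.3% in livers and 5.84% and 6.04% in the 2 male lungs.

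UID-16508 was close to limited to testes. Outside 12.8 mo, the 9 testes had 630 to 1421 reads, or 2.50 to 7.12 FPKM (mean 4.55 ± 1.62, SD, n = 9). Of the 47 other libraries outside 12.8 mo, 44 had no read, which allows up to 3 reads each, and the 3 with reads were a male lung with 6, a female brain with 2 and a female lung with 2. At 12.8 mo, with the longer window, testes had 2716, 2768 and 3455 reads and 5 of the 9 other libraries had 2 to 6. None of these libraries of other organs came near the lowest testis.

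UID-914 had reads in every library outside 12.8 mo, with testes highest among the male organs. Testes had 1157 to 2092 reads and 6.10 to 9.29 FPKM (mean 7.36 ± 1.15, SD, n = 9). Among female organs, uteri had 3.13 to 7.87 FPKM (median 5.11, n = 6), ovaries 2.18 to 4.00 (median 2.79, n = 9), lungs 1.79 to 3.32 (median 2.21, n = 9) and brains 0.357 to 0.673 (median 0.526, n = 9). In males, livers had 0.227 to 0.985 (median 0.727, n = 9), the 2 lungs 0.761 and 1.39, and the 3 brains 0.803, 0.580 and 0.486. Uteri overlapped ovaries, ovaries overlapped female lungs, and livers overlapped male brains and male lungs.

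**Figure D3:**
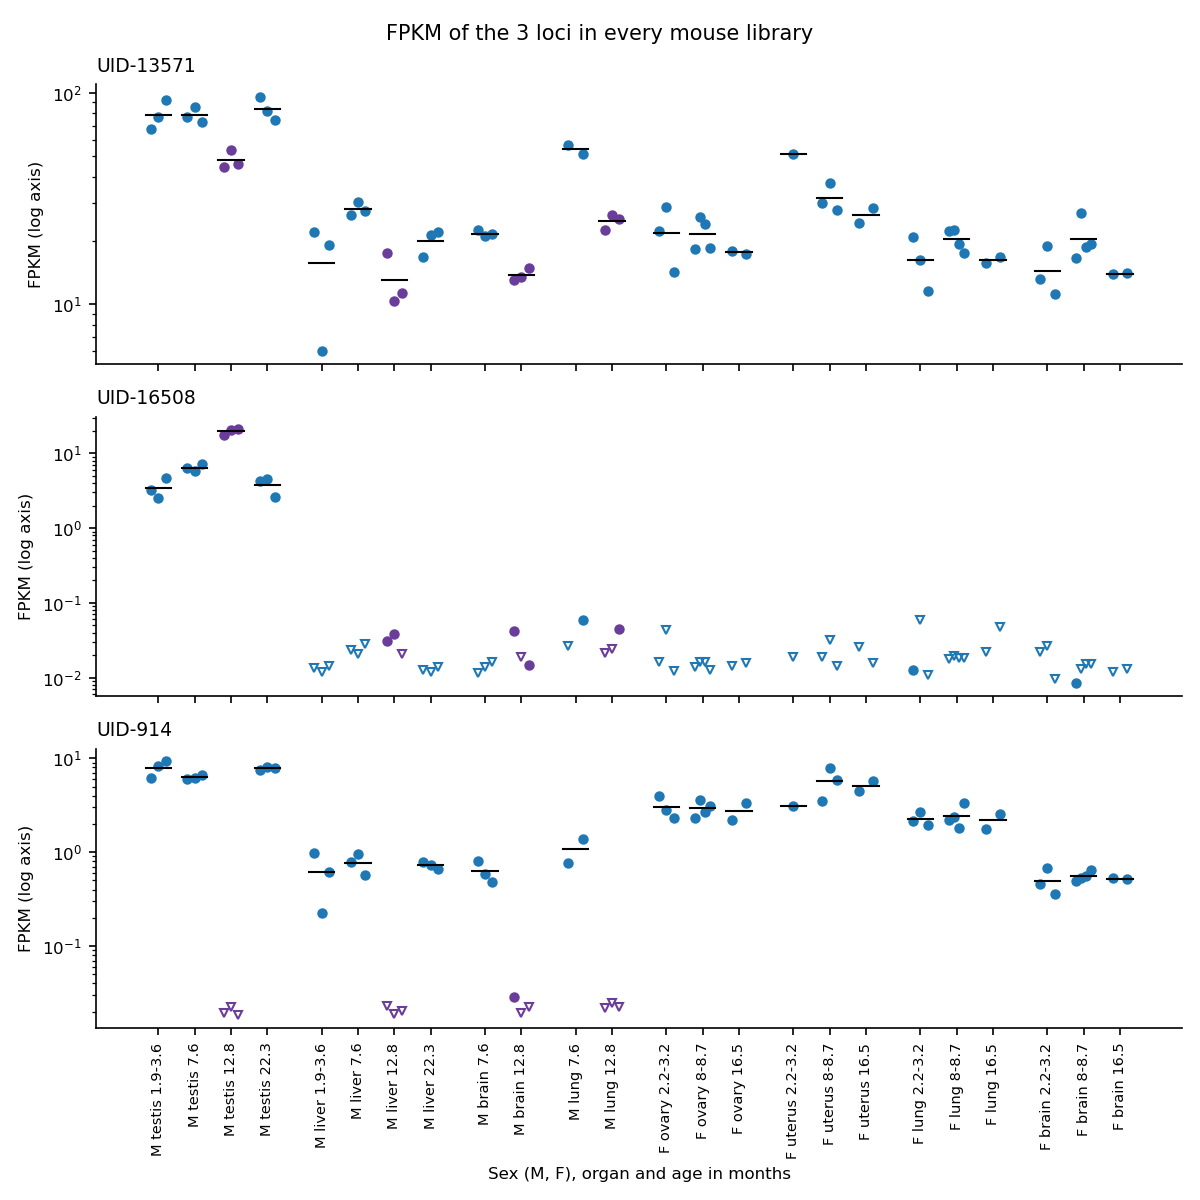
FPKM (log axis) of the 3 loci in every mouse library by sex (M or F), organ and age in months, with 1 point per library, a line at the mean of groups in which every library had a read, purple for 12.8 mo, and open triangles at the floor of 3 reads for libraries without a read. UID-16508 stands near or under the floor outside testes, and UID-914 has no read in 11 of the 12 libraries of 12.8 mo.

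Set beside the other organs of the 7.6 mo males, mean FPKM of UID-13571 in testes (78.2, n = 3) was 2.78 times that in livers, 3.62 times that in brains and 1.44 times that in lungs. For UID-914 (6.31 in testes) the ratios were 8.17, 10.1 and 5.86, in the same order. UID-16508 (6.42 in testes) was at least 265-fold higher than in livers, at least 464-fold higher than in brains and at least 151-fold higher than in lungs, with libraries without a read set at the floor of 3 reads. Within the mice that gave both organs, the ratio of testis to lung at UID-13571 was 1.35 and 1.66. When the share of L1 reads outside the 3 loci was taken in place of mapped reads, the ratios to lungs were 4.50 for UID-13571, 18.1 for UID-914 and at least 467 for UID-16508. Another locus, UID-3342, alone held 51.7% and 50.8% of all L1 reads of these lungs, against 9.33% to 11.8% in the testes. Its part in these ratios was not tested. The ratios to brains became smaller by the same scaling, at 1.59 for UID-13571, 4.54 for UID-914 and at least 205 for UID-16508. Without mouse 1303, whose lung had 6 reads of UID-16508, its ratio to lungs was at least 253.

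Age was compared within testes between windows of the same length, at 7.6 against 1.9-3.6 mo and at 22.3 against 7.6 mo. At UID-13571, testes had 67.6, 77.1 and 92.0 FPKM at 1.9-3.6 mo, 76.7, 85.4 and 72.6 at 7.6 mo, and 95.3, 82.2 and 74.3 at 22.3 mo, and the ages overlapped. UID-914 had 6.11, 8.31 and 9.29 FPKM at 1.9-3.6 mo, 6.10, 6.17 and 6.64 at 7.6 mo, and 7.60, 8.13 and 7.88 at 22.3 mo. UID-16508 had 3.23, 2.50 and 4.62 FPKM at 1.9-3.6 mo, 6.31, 5.83 and 7.12 at 7.6 mo, and 4.24, 4.48 and 2.64 at 22.3 mo. The 3 loci were chosen by testis reads. UID-16508 reached 1000 reads in every testis of 7.6 mo and in none of 1.9-3.6 or 22.3 mo. The order of its ages, and the tests of all 3 loci in testes below, may therefore lean on the values behind the choice.

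None of these differences passed the test over all loci. Between 7.6 and 1.9-3.6 mo, 0 of the 756 loci tested were called (0%, quasi-likelihood F test of edgeR, adjusted by Benjamini-Hochberg, threshold 0.05), 55 had an unadjusted p under 0.05, and DESeq2 called 3. The log2 difference of UID-16508 was 0.90 ± 0.27 (SE, adjusted p = 0.311 in edgeR), that of UID-914 -0.33 ± 0.24 (adjusted p = 0.735) and that of UID-13571 -0.01 ± 0.13 (adjusted p = 0.979). The median over all loci tested was 0.32. Between 22.3 and 7.6 mo, 2 of 762 loci were called (0.262%), none of them among the 3. Without the 7.6 mo testis of mouse 1305, 41 loci were called. UID-16508 was lower by -0.76 ± 0.22 (SE, adjusted p = 0.130 in edgeR), with all loci at a median of -0.24, and UID-914 was at 0.32 ± 0.17 (adjusted p = 0.529) and UID-13571 at 0.10 ± 0.10 (adjusted p = 0.831).

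At 12.8 against 7.6 mo, where the windows differ, UID-13571 was called lower and UID-16508 higher in testes, while 11.9% of the 774 loci tested were called. UID-914 was called too, but is set apart below. The 3 loci were chosen by testis reads, so their calls in testes are given as a description and are not set against that share. UID-13571 had 44.8, 53.7 and 46.3 FPKM at 12.8 mo, 0.617 times its mean at 7.6 mo (log2 difference -0.70 ± 0.13, SE, adjusted p = 0.000703 in edgeR). With TMM on the L1 reads and with DESeq2 the log2 difference was of about the same size (-0.74 and -0.70), but its SE was larger (0.52 and 0.43) and the call was lost (adjusted p = 0.515 and 0.406). UID-16508 had 17.5, 20.4 and 21.0 FPKM, 3.06 times its mean at 7.6 mo (1.61 ± 0.22, adjusted p = 2.93e-05 in edgeR), which was lost when the L1 reads outside the 3 loci were the library size (adjusted p = 0.0872). UID-914 had no read in any testis of 12.8 mo and was at least 317-fold lower than at 7.6 mo (adjusted p = 4.37e-10 in edgeR). It passed the read filter through the 7.6 mo testes alone, and its 12.8 mo window ended short of the pseudogene. This call is therefore not read as a change with age. The 12.8 mo window held fewer exon bases than the other at UID-13571, more at UID-16508 and none at UID-914, and the part of the window in these differences was not tested. Without the 12.8 mo testis of mouse 900, 233 loci were called in place of 92.

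Of the 435 loci with at least 10 reads in every testis of 7.6 mo, 9 (2.07%) had no read in any testis of 12.8 mo. UID-914 was one of them, and so was UID-5687, which had 498, 372 and 330 reads in the testes of 7.6 mo. In the other male organs, UID-914 had a mean of 0.772 FPKM at 7.6 mo and no read at 12.8 mo in livers (at least 37.0-fold lower), 1.08 and no read in lungs (at least 47.0-fold lower) and 0.623 FPKM and 4 reads in 1 of 3 brains (at least 26.8-fold lower), of which only the livers were tested. UID-13571 at 12.8 mo was at 0.464 times its 7.6 mo mean in livers, 0.639 times in brains and 0.456 times in lungs. Comparison loci with a processed pseudogene did not share 1 pattern. UID-5687 on chromosome 5 has Gm5559 in its downstream flank, with 969 exon bases in the window outside 12.8 mo and 469 in that of 12.8 mo. It was at least 100-fold lower at 12.8 mo than at 7.6 mo in testes, at least 2203-fold in livers, at least 2038-fold in brains and at least 1484-fold in lungs. The part of the window in these falls was not tested. UID-3342, a locus on the X chromosome with the exon of Rps24-ps3, a processed pseudogene, inside the L1 and so in both windows, was at 1.56, 0.968, 1.96 and 0.803 times its 7.6 mo mean in testes, livers, brains and lungs.

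In livers, UID-16508 had too few reads for a test and the other 2 loci were tested. At 7.6 against 1.9-3.6 mo, neither was called, while 2.17% of the 46 loci were. UID-13571 had 22.1, 6.00 and 19.1 FPKM in the younger livers and 26.5, 30.3 and 27.5 at 7.6 mo (log2 difference 0.84 ± 0.69, SE, adjusted p = 0.495 in edgeR). All loci tested had a median of 0.77 in this comparison, and the younger liver of mouse 1110 was the lowest library at both loci in FPKM. Its mapped reads rest on 1 listed locus. As a share of L1 reads, UID-13571 was at 9.57% in that liver, against 9.81% and 10.5% in those of mice 1071 and 1111. UID-914 was at 0.34 ± 0.77 (adjusted p = 0.801), and its direction turned under each scaling to L1 reads. At 22.3 against 7.6 mo, neither was called, while 30.5% of 59 loci were, with UID-13571 at -0.50 ± 0.20 (SE, adjusted p = 0.108 in edgeR) and UID-914 at -0.09 ± 0.28 (adjusted p = 0.842, direction turned under each scaling to L1 reads). At 12.8 against 7.6 mo, with other windows, both were called and lower, while 66.7% of 63 loci were called. UID-914 had no read in the 12.8 mo livers and passed the read filter through those of 7.6 mo alone. UID-13571 was at -1.11 ± 0.34 (adjusted p = 0.00303), and the call was lost with TMM on the L1 reads (adjusted p = 0.573) and without the 12.8 mo liver of mouse 900 (adjusted p = 0.0609).

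In ovaries, no locus was called at 8-8.7 against 2.2-3.2 mo (0 of 129, 0%, with 15 at an unadjusted p under 0.05 in edgeR and 0 called by DESeq2) or at 16.5 against 8-8.7 mo (0 of 232, 0%, with 21 and 2). UID-13571 had 22.3, 28.7 and 14.2 FPKM in the youngest ovaries, 18.2, 25.7, 23.8 and 18.5 at 8-8.7 mo, and 17.8 and 17.3 at 16.5 mo. UID-914 had 4.00, 2.79 and 2.32 FPKM, then 2.29, 3.61, 2.69 and 3.13, then 2.18 and 3.38. The log2 differences were -0.01 ± 0.29 and -0.30 ± 0.21 for UID-13571 (SE, adjusted p = 0.996 and 0.699 in edgeR) and -0.05 ± 0.49 and -0.08 ± 0.41 for UID-914 (adjusted p = 0.984 and 0.944). The direction of UID-914, and in the first comparison of UID-13571, turned when single ovaries were left out. UID-16508 had no read in any of the 9 ovaries or 6 uteri.

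Organs of the same mouse were compared in females over all ages, as the mean log2 difference within mice with a two-sided exact sign-flip test. The test was run on UID-13571 and UID-914 in 5 organ pairs, the male pair of brain and liver included, and the 10 p-values were adjusted together, since UID-16508 was near or under the floor in all 5 pairs. Other loci were not tested in this way, so no share of all loci stands beside these results. UID-914 was higher in the lung than in the brain in 9 of 9 females, by 2.12 ± 0.26 on the log2 scale (SD, n = 9, exact p = 0.00391, the smallest possible, adjusted p = 0.0195). It was higher in the ovary than in the brain in 9 of 9 females, by 2.46 ± 0.37 (SD, n = 9, exact p = 0.00391, adjusted p = 0.0195). It was higher in the ovary than in the lung in 8 of 9, by 0.33 ± 0.31 (SD, n = 9, exact p = 0.0156, adjusted p = 0.0391). From ovary to uterus the value was higher in 5 of 6 females, with a mean of 0.68 ± 0.54, which did not pass (SD, n = 6, exact p = 0.0625, adjusted p = 0.0893).

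For UID-13571, differences were smaller than for UID-914 between brain and the other organs, without a test between the loci, and about as large between uterus and ovary. It was higher in the ovary than in the brain in 7 of 9 females, by 0.30 ± 0.27 (SD, n = 9, exact p = 0.0156, adjusted p = 0.0391), but taken as a share of the L1 reads outside the 3 loci it was lower in the ovary, by -0.60 (adjusted p = 0.0156 in the exact test). Between lung and brain the difference was 0.11 ± 0.30, higher in 6 of 9 (SD, n = 9, exact p = 0.328, adjusted p = 0.410), and as a share of L1 reads it was -0.94 (adjusted p = 0.00977 in the exact test). Between ovary and lung it was 0.20 ± 0.29, higher in 8 of 9 (SD, n = 9, exact p = 0.0586, adjusted p = 0.0893). The uterus was above the ovary in 6 of 6 females, by 0.70 ± 0.27 (SD, n = 6, exact p = 0.0312, the smallest possible, adjusted p = 0.0625).

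**Figure D4:**
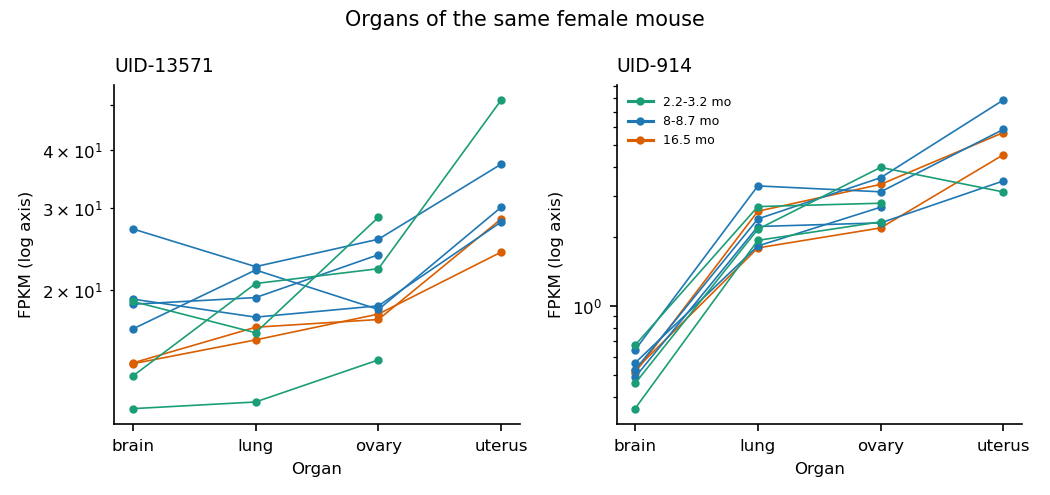
FPKM (log axis) of UID-13571 and UID-914 in the organs of each female, with 1 line per mouse, colored by age. The lines of UID-914 climb from brain to lung in 9 of 9 mice, whereas those of UID-13571 stay between 11.2 and 28.7 in brain, lung and ovary and are highest in the uterus in each of the 6 mice that gave one.

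In the tests over all loci at 8-8.7 mo, ovaries and lungs were not compared with each other. Between lungs and brains (4 mice), UID-914 was called at 2.13 ± 0.26 (SE, adjusted p = 2.74e-05 in edgeR), and UID-13571 was not, at 0.00 ± 0.21 (adjusted p = 0.998), while 70.3% of 101 loci were called. Between ovaries and brains, UID-914 was called at 2.40 ± 0.32 (SE, adjusted p = 1.04e-05) and UID-13571 was not, at 0.08 ± 0.22 (adjusted p = 0.731), while 57.8% of 116 loci were called. In the L1 share scaling, UID-13571 was lower in lungs and in ovaries than in brains (adjusted p = 0.00013 and 0.002 in edgeR). Between uteri (30.2, 37.3 and 28.0 FPKM of UID-13571 and 3.50, 7.87 and 5.86 of UID-914) and ovaries, neither was called without the mouse as a block, at 0.56 ± 0.23 and 0.97 ± 0.40 (SE, adjusted p = 0.0807 for both in edgeR), while 29.1% of 127 loci were called and all loci had a median of -1.37. With the mouse as a block, over the 3 mice that gave both organs, both were called (0.62, adjusted p = 0.0125, and 0.88, adjusted p = 0.0258, in edgeR). In these mice the uterus and ovary deviated from their group means with r of only 0.09, -0.10 and 0.09. On simulated data, the comparison without the block recovered 3.23% of 31 loci changed 4-fold. UID-914 was also called with TMM on the L1 reads (1.77, adjusted p = 0.0284) and with DESeq2 (1.57, adjusted p = 0.0294), and without the uterus of mouse 1324 (1.23, adjusted p = 0.0224), when 81 loci were called in all. UID-13571 was at -0.04 with the L1 reads outside the 3 loci as library size (adjusted p = 0.887).

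In males of 7.6 mo, brains were lower than livers at UID-13571 (log2 difference -0.38 ± 0.10, SE, adjusted p = 0.00666 in edgeR, lower in 3 of 3 mice), while 84.8% of the 99 loci tested were called and their median was 2.70. The call was lost with no filter on low counts (adjusted p = 0.391 in edgeR). With the L1 reads outside the 3 loci as library size the direction turned (0.57, adjusted p = 0.000212 in edgeR). UID-914 did not pass, at -0.31 ± 0.32 (adjusted p = 0.389 in edgeR), but it did with TMM on the L1 reads (-1.14, adjusted p = 0.00396) and with DESeq2 (-0.84, adjusted p = 0.00121), and the direction turned with the L1 reads outside the 3 loci (0.63, adjusted p = 0.0861). Over the 6 males with both organs, the within-mouse difference of brain minus liver was -0.13 ± 0.42 at UID-13571 (SD, n = 6, exact p = 0.469, adjusted p = 0.521), and 0.23 ± 1.02 at UID-914 (SD, n = 6, exact p = 0.781, adjusted p = 0.781), a value that includes 3 mice of 12.8 mo with 0 to 4 reads per organ. Without those mice it was -0.32 ± 0.38 (SD, n = 3, exact p = 0.500, when the smallest possible is 0.250).

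Among the loci with at least 10 reads in at least 20 mouse libraries (111 loci, which leaves out UID-16508 itself), the pattern of log2 FPKM over all 68 libraries most like that of UID-16508 was found at UID-6930 on chromosome 14 (Pearson r = 0.86), followed by UID-106 (r = 0.80) and UID-474 (r = 0.78), both on chromosome 2. The same 3 loci led for UID-13571, with r = 0.68 for UID-6930, 0.68 for UID-474 and 0.66 for UID-106. For UID-914 they were UID-5714 on chromosome 5 (r = 0.87), UID-10972 on chromosome 12 (r = 0.85) and UID-7432 on chromosome 13 (r = 0.84). The libraries share organs, mice, read lengths and windows, so these values describe the libraries only. Over the 56 libraries outside 12.8 mo, a choice made after seeing the data, 0 of the 9 named pairings remained among the first 3. In those libraries the members' own patterns had r = 0.84 for UID-13571 and UID-16508, 0.66 for UID-13571 and UID-914, and 0.62 for UID-16508 and UID-914, and with the 12.8 mo libraries added the values for the same pairs were 0.76, 0.35 and -0.03. The 3 loci were chosen together by their testis reads, so these r values are not evidence of a shared pattern.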

How the data were processed

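Strand-specific paired-end RNA-Seq had been aligned by the authors to mm10 with Bowtie, unspliced, keeping unique concordant pairs with few mismatches, followed by removal of duplicates and by bedtools. The deposited values are read counts per window, mates counted separately, with covered bases and the covered fraction. The 17019 windows tabulated in every library were used once each. FPKM divides reads by 6 kb and by mapped reads, recovered per library as the value on which most loci coincide when deposited counts are divided by the authors' tabulated FPKM. At 22.3 mo, 5 of 6 columns coincided with another mouse of the same group and were joined by their counts. The value rests on 1 or 2 loci in the livers of 1.9-3.6 and 12.8 mo and on a minority of those listed in the 12.8 mo lungs. Titles put organs of 1 number in 1 mouse. Same-mouse libraries deviated from their group means with r from -0.10 to 0.38. No 2 libraries of a group held the same counts, with at least 274 loci differing. FPKM floors of 3 reads ranged from 0.00973 to 0.0592 and cover counting error only.

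Contrasts used edgeR 4.0.16 (R 4.3.3) on loci that reached 10 reads in a number of libraries equal to the size of the smaller group, with mapped reads as library sizes and only the 2 groups compared. SE was the log2 difference divided by the square root of F. On simulated data with 4-fold changes, this recovered 67.7% of 189 changed loci for testes at 7.6 against 1.9-3.6 mo and 3.23% of 31 for uteri against ovaries. Within-mouse tests used a pseudocount of 1 read. Named loci are the 3 members, the 3 most alike to each, and comparison loci. Alternatives were TMM, other library sizes, DESeq2 1.42.0, no filter, leaving out libraries, and the mouse as a block. Members and lists were chosen with earlier results of these data known. Exons came from GENCODE M21 and RefSeq, and pseudogenes were aligned with biopython 1.88. Rat libraries were not used here.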

Additional observations from a re-analysis of the deposited data

Results flagged for a closer look

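Among the groups of 4 mice, 14 sets of values of the 3 loci were searched for a sample far from the others, and chance flags about 1 in 20 groups. At UID-16508, the brain of female 1324 at 8-8.7 mo had 2 reads (0.0084 FPKM on 222 covered bases), whereas the other 3 brains of that age had none. This is below the floor of 3 reads, so it cannot be told from the libraries without a read. At UID-13571, the lung of female 1325 at 8-8.7 mo had 754 covered bases against 755 in the other 3, and the ovary of female 1338 had 753 against 754 in the other 3, a difference of a single base each.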

How the results depend on the processing

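Of 478 alternative values, 374 kept their direction, their side of the threshold or their size, 54 moved, 35 turned direction, 9 gained and 6 lost a call. With TMM on total L1 reads, UID-13571 at 12.8 against 7.6 mo lost its call in testes (-0.74) and livers (-0.25), UID-914 turned in livers at 7.6 against 1.9-3.6 mo (-0.42) and 22.3 against 7.6 mo (0.21) and gained a call in male brain against liver (-1.14) and uterus against ovary (1.77), and UID-13571 turned in ovary against brain (-0.56). Loci called came to 1 in testes and 0 in livers at 7.6 against 1.9-3.6 mo, and 2 in ovaries at 16.5 against 8-8.7 mo. With the L1 reads outside the 3 loci, UID-16508 lost its call at 12.8 mo (0.90), UID-914 turned in the same liver comparisons (-0.35 and 0.27) and in brain against liver (0.63), and UID-13571 turned in brain against liver (0.57), uterus against ovary (-0.038) and ovary against brain (-0.84) and gained a call in lung against brain (-1.05). Loci called came to 1 in testes at 7.6 against 1.9-3.6 mo, 11 in livers at 22.3 against 7.6 mo and 1 in ovaries at 16.5 against 8-8.7 mo. With DESeq2, UID-13571 lost its call in testes at 12.8 mo (-0.70), UID-914 turned in the liver comparisons (-0.42 and 0.18) and gained calls in brain against liver (-0.84) and uterus against ovary (1.57), and UID-13571 turned in ovary against brain (-0.36). DESeq2 called 3 loci in testes at 7.6 against 1.9-3.6 mo, 11 at 22.3 against 7.6 mo, 0 in livers at 7.6 against 1.9-3.6 mo and 2 in ovaries at 16.5 against 8-8.7 mo. With no filter, UID-13571 lost its call in brain against liver (-0.38), and loci called came to 150 and 8 in testes at 12.8 and 22.3 against 7.6 mo, 0 in livers at 7.6 against 1.9-3.6 mo, 3 in ovaries at 16.5 against 8-8.7 mo, 140 in brain against liver, 205 in lung against brain and 199 in ovary against brain.

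As shares of the L1 reads outside the 3 loci, within-mouse differences of UID-13571 turned for lung minus brain (-0.94), ovary minus brain (-0.60) and male brain minus liver (0.33) and passed for ovary minus lung (0.34). Without the 12.8 mo mice, UID-914 turned in brain minus liver (-0.32). Testis ratios by this share were 2.36 to liver, 1.59 to brain and 4.50 to lung for UID-13571, at least 229, 205 and 467 for UID-16508, and 4.54 to brain and 18.1 to lung for UID-914. The cause of these changes was not tested.

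With the mouse as a replicate block, both loci gained a call in uterus against ovary (0.62 and 0.88) and UID-13571 turned in lung against brain (0.017). The block changed no other call.

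When single libraries were left out, UID-13571 ranged from -0.11 to 0.11 in testes at 7.6 against 1.9-3.6 mo, from -1.38 to -0.96 in livers at 12.8 mo, from -0.24 to 0.24 in ovaries at 8-8.7 against 2.2-3.2 mo, from -0.088 to 0.17 in lung against brain and from -0.012 to 0.25 in ovary against brain. UID-914 ranged from -0.048 to 0.88 in livers at 7.6 against 1.9-3.6 mo, from -0.26 to 0.094 at 22.3 against 7.6 mo, from -0.21 to 0.20 in ovaries at 8-8.7 against 2.2-3.2 mo, from -0.43 to 0.20 at 16.5 against 8-8.7 mo and from 0.67 to 1.23 in uterus against ovary. The ratio of testis to lung of UID-16508 ranged from at least 111 to at least 253. Loci called ranged from 0 to 3, 84 to 233 and 0 to 41 in the 3 testis comparisons, from 0 to 1 in livers at 7.6 mo and 2 to 14 at 22.3 mo, from 0 to 1 and 0 to 6 in ovaries, from 7 to 81 in uterus against ovary and from 74 to 106 in ovary against brain. With 1 library left in a group, its spread was taken from the other group. Groups of 2 to 4 mice limit the comparisons between groups, and 6 to 9 mice those within mice, and the counts behind UID-914 in livers (57 to 221 reads) limit its precision there.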
